A study of Drosophila melanogaster with 9 samples.

Results

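UDP-glycosyltransferase (Ugt) genes were examined in whole 3rd instar larvae of *Drosophila melanogaster* after sterile mechanical injury. The members are all genes read by a probe set whose only annotated symbol starts with "Ugt". This gave 35 genes on 35 probe sets, 1 for each gene, of 11982 genes with a probe set of a single symbol. The names place them in 13 families, of which family 37 holds 8 genes, family 35 holds 6 and family 36 holds 4. All larvae were of the *y w* strain (written yw in the labels), which carries the pigmentation alleles *yellow* and *white* in the untreated controls too. RNA was taken from untreated larvae, from larvae pricked with a clean tungsten needle (clean injury) and from larvae pinched with forceps, in both cases 4 h after the injury. Each group had 3 arrays that the labels call biological replicates, and the methods state how many larvae gave an RNA only for the cDNA used in qPCR. Uninjured larvae of the later time were not analysed here, so that in a comparison with untreated larvae the injury cannot be told apart from those hours, the handling and the new food.

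Ugt enzymes sit in the membrane of the endoplasmic reticulum and transfer a sugar from a UDP-sugar, in insects chiefly UDP-glucose, to small lipophilic molecules. The conjugate is more soluble in water and can be exported from the cell, which makes this a conjugating step of detoxification that can follow oxidation by cytochromes P450. Plant toxins and insecticides are substrates, as are hormones, pigments and odorants, and the fat body, midgut and Malpighian tubules are the main sites of such reactions in insects. Family numbers group the enzymes by the similarity of their protein sequences.

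Values are deposited log2 signals, and a difference of 1 is a 2-fold change. The medians of the 9 arrays lay between 4.94 and 5.08, no 2 arrays were identical, and the values were used without further scaling. A gene is called higher or lower where limma, fitted to 18769 probe sets on all 9 arrays, gave an adjusted p under 0.05 (Benjamini-Hochberg). Of the Ugt genes, 20 had a mean at or above that of the median probe set (5.03) and 15 lay below it. Without detection calls, it is not known which of the dim genes stood above background. Changes were tested between arrays for 1 gene at a time, and levels of different genes were not tested against each other.

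Injured larvae had less mRNA of a small set of Ugt genes, most of them of family 37, while most of the other Ugt genes did not pass the test. After pinching 6 of the 35 genes were lower, namely *Ugt35B1*, *Ugt37A2*, *Ugt37B1*, *Ugt37C1*, *Ugt37C2* and *Ugt37D1*, and 1 was higher, *Ugt36D1*. Of all probe sets, 4.99% were called lower and 4.21% higher in this comparison, so that 6 of 35 is above the share for lower calls, whereas 1 of 35 is near that for higher calls. All 6 lower genes fell at least 2-fold, and 1.44% of all probe sets were both called and at least 2-fold lower. After clean injury 5 of the 35 were lower, the genes just named without *Ugt37D1*, and 2 were higher, *Ugt36A1* and *Ugt36D1*. The matching shares of all probe sets were 4.93% lower and 5.22% higher, so that 2 of 35 is near the share for higher calls. All 5 lower genes fell at least 2-fold, against 1.53% of all probe sets that were both called and at least 2-fold lower. In whole larvae, fewer cells that hold such a transcript and less of it per cell cannot be told apart. The comparisons with untreated larvae share the untreated arrays, so that their values are given side by side and are not independent.

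**Figure D1:**
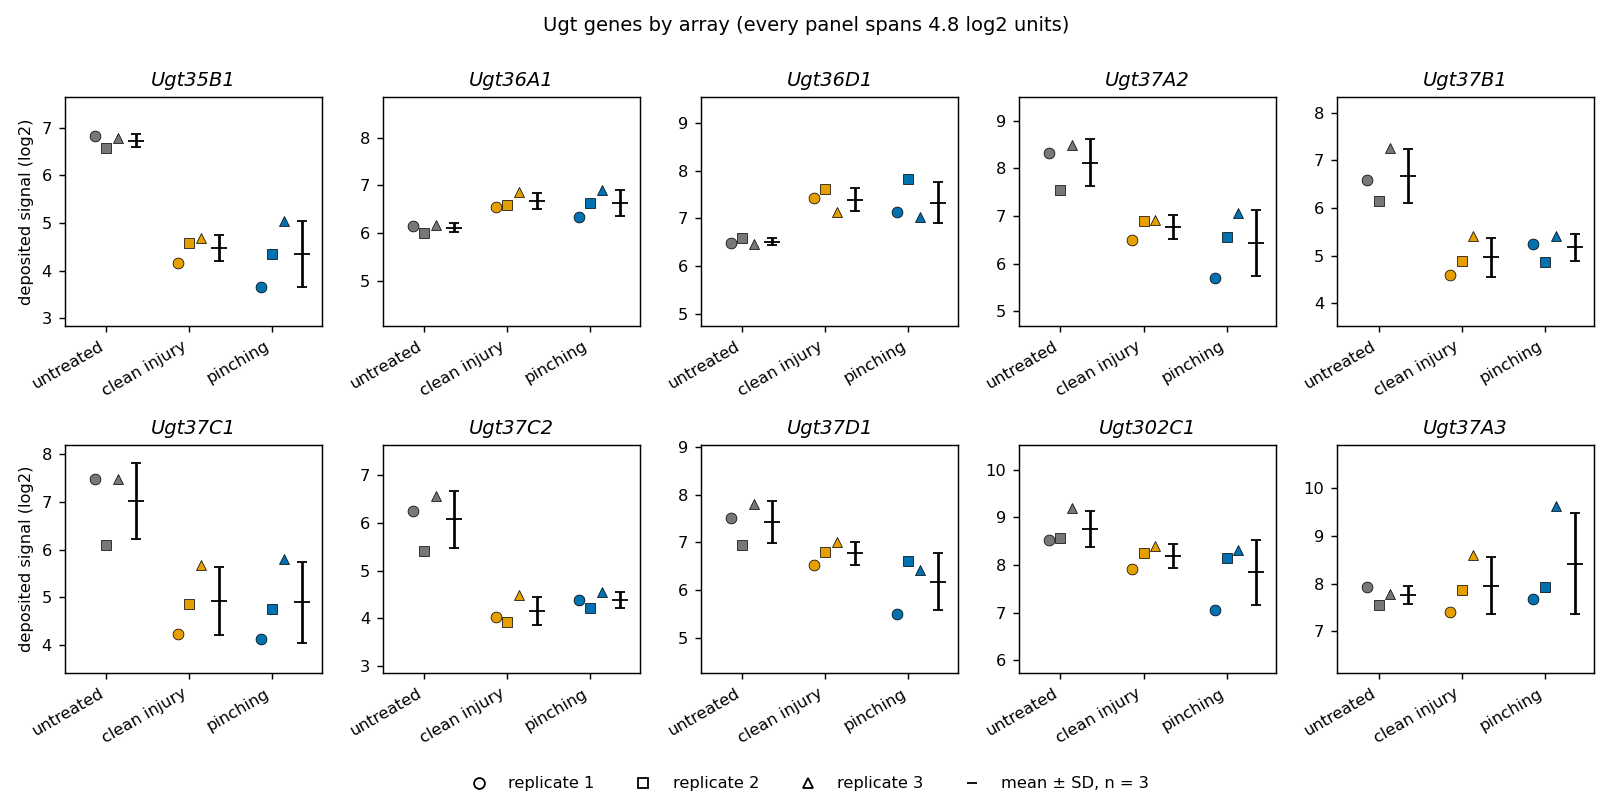
Deposited log2 signal of 10 Ugt genes on each of the 9 arrays, by group, with marker shapes for replicates 1 to 3 and a bar for the mean ± SD (n = 3). Panels differ in their position but not in their span on the log2 axis: the first 8 were called in some comparison, and *Ugt302C1* and *Ugt37A3* were not.

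*Ugt35B1*, also known as *Ugt35b* and known in adult flies for its expression in the antenna, had the largest fall of the 35 genes in both comparisons. It read 6.82, 6.57 and 6.79 on untreated arrays 1 to 3, against 4.17, 4.58 and 4.68 after clean injury and 3.65, 4.34 and 5.04 after pinching. Every injured array lay below every untreated one, and the pinching arrays were the most widely spread. The fall was 5.22-fold after pinching (log2 change -2.38, standard error (SE) 0.29, adjusted p = 0.000945 from limma) and 4.76-fold after clean injury (log2 change -2.25, adjusted p = 0.00123 from limma). It was the only one of 6 genes of family 35 to pass. The others were *Ugt35A1*, *Ugt35C1*, *Ugt35D1*, *Ugt35E1* and *Ugt35E2*, with log2 changes between -0.21 and 0.08 after pinching and between -0.35 and 0.25 after clean injury. *Ugt35A1*, the gene next to *Ugt35B1*, was at 9.56 ± 0.05 (SD, n = 3) in untreated larvae, 9.37 ± 0.31 after clean injury and 9.43 ± 0.47 after pinching. *Ugt35C1*, known as *Ugt86Dd* for its part in the nicotine resistance of larvae, was at 5.28 ± 0.17 (SD, n = 3), 5.53 ± 0.14 and 5.36 ± 0.40 in the same order.

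Family 37 held most of the lower genes, with 5 of 8 lower after pinching and 4 of 8 after clean injury. Its median log2 change was -1.37 after pinching and -1.0 after clean injury, beside -0.06 and -0.07 over the 27 genes of the other families and -0.02 and -0.04 over all probe sets. In those 27 genes, 1 was lower in each comparison, *Ugt35B1*. *Ugt37C1* moved furthest within the family. On the untreated arrays it read 7.49, 6.09 and 7.48, on those of clean injury 4.24, 4.86 and 5.67, and on those of pinching 4.12, 4.76 and 5.80. The groups did not overlap, although untreated array 2 was near pinching array 3. The fall was 4.36-fold after pinching (log2 change -2.12, SE 0.50, adjusted p = 0.0259 from limma) and 4.28-fold after clean injury (adjusted p = 0.0260 from limma).

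*Ugt37C2* read 6.25, 5.40 and 6.56 in untreated larvae, 4.03, 3.92 and 4.48 after clean injury and 4.37, 4.22 and 4.54 after pinching. The injured arrays formed a narrow band below the untreated ones. The fall was 3.80-fold after clean injury (log2 change -1.93, SE 0.26, adjusted p = 0.00175 from limma) and 3.23-fold after pinching (log2 change -1.69, adjusted p = 0.00347 from limma). *Ugt37B1* had the same shape, with 6.59, 6.15 and 7.26 on the untreated arrays, 4.58, 4.88 and 5.41 after clean injury and 5.23, 4.87 and 5.41 after pinching. It fell 3.27-fold after clean injury (log2 change -1.71, SE 0.29, adjusted p = 0.00487 from limma) and 2.82-fold after pinching (log2 change -1.50, adjusted p = 0.00943 from limma). For both genes the lowest untreated array was above the highest injured one.

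*Ugt37A2* read 8.32, 7.55 and 8.49 in untreated larvae, 6.49, 6.90 and 6.92 after clean injury and 5.70, 6.55 and 7.06 after pinching. No injured array reached the untreated ones, and the fall was 3.21-fold after pinching (log2 change -1.68, SE 0.33, adjusted p = 0.0114 from limma) and 2.55-fold after clean injury (log2 change -1.35, adjusted p = 0.0287 from limma). *Ugt37D1* was called in a single comparison. Its values were 7.52, 6.94 and 7.81 in untreated larvae, 6.52, 6.80 and 7.00 after clean injury and 5.49, 6.61 and 6.43 after pinching. The pinching arrays lay below all untreated ones, whereas clean injury array 3 was above untreated array 2. The log2 change was -1.25 after pinching (2.37-fold lower, SE 0.30, adjusted p = 0.0266 from limma) and -0.65 after clean injury (adjusted p = 0.206 from limma), and their difference of -0.60 (95% interval -1.25 to 0.06) did not pass.

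The remaining genes of the family were *Ugt37A1*, *Ugt37A3* and *Ugt37E1*. *Ugt37A3* had one of the 3 largest changes after pinching among genes that were not called, and the only one upward in the family. It read 7.93, 7.55 and 7.77 in untreated larvae, 7.40, 7.87 and 8.59 after clean injury and 7.67, 7.94 and 9.63 after pinching. Replicate 3 was the highest array in both injured groups, and the groups overlapped (log2 change 0.66 after pinching, SE 0.45, adjusted p = 0.420, and 0.20 after clean injury, adjusted p = 0.812, both from limma). Without pinching array 3 the change after pinching was 0.05. *Ugt37E1* and *Ugt37A1* were dim in all groups. *Ugt37E1*, singled out after its values were seen, read 3.02, 2.68 and 3.23 in untreated larvae, 2.57, 2.53 and 2.39 after clean injury and 2.55, 2.45 and 2.46 after pinching. Its injured arrays were all below the untreated ones, with log2 changes of -0.49 after pinching (adjusted p = 0.0546 from limma) and -0.48 after clean injury (adjusted p = 0.0560 from limma). *Ugt37A1* had log2 changes of -0.16 and -0.15.

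Some arrays stood low or high together over the Ugt genes. Of all 35 genes, untreated array 2 was the lowest of its group for 20, clean injury array 1 for 27 and pinching array 1 for 22. Untreated array 2 was the lowest of its group for all 6 genes lower after pinching and for all 8 genes of family 37, while it was the lowest for 31.8% of all probe sets. Clean injury array 1 was the lowest of its group for 5 of the 6 and clean injury array 3 the highest for all 6, against 38.0% and 40.2% of all probe sets. Pinching array 1 was the lowest for 4 of the 6 and pinching array 3 the highest for 5, against 44.6% and 31.6%. Clean injury array 1 and pinching array 1 were thus the lowest for most Ugt genes and not only for the lower ones. Untreated array 2 was the lowest for every lower gene and every gene of family 37, against 20 of all 35.

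Family 36 held the genes called higher in the unblocked fit, whose number was near the share of all probe sets in both comparisons. *Ugt36D1* read 6.49, 6.60 and 6.45 in untreated larvae, 7.43, 7.61 and 7.13 after clean injury and 7.13, 7.83 and 7.03 after pinching. All injured arrays were above the untreated ones, and the rise was 1.84-fold after clean injury (log2 change 0.88, SE 0.20, adjusted p = 0.0228 from limma) and 1.76-fold after pinching (log2 change 0.82, adjusted p = 0.0323 from limma). *Ugt36A1*, also named *Dorothy* (*Dot*), is known for regulatory DNA that drives transgenes in pericardial cells, the nephrocytes beside the heart. It read 6.15, 6.01 and 6.17 in untreated larvae, 6.55, 6.60 and 6.86 after clean injury and 6.34, 6.64 and 6.89 after pinching. Again no array of an injured group overlapped the untreated ones. Its rise was 1.47-fold after clean injury (log2 change 0.56, SE 0.15, adjusted p = 0.0408 from limma), while the log2 change of 0.51 after pinching did not pass (adjusted p = 0.0602 from limma). Its call after clean injury held in 2 of the 9 fits that left out 1 array. *Ugt36E1* was at 5.80 ± 0.06 (SD, n = 3) in untreated larvae, 5.68 ± 0.28 after clean injury and 5.93 ± 0.23 after pinching. *Ugt36F1* was dim, at 3.25 ± 0.11 (SD, n = 3), 3.26 ± 0.06 and 3.30 ± 0.27. The median log2 change of the 4 genes was 0.32 after pinching and 0.29 after clean injury, and none of them reached a 2-fold change.

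None of the 17 genes outside families 35, 36 and 37 was called in the unblocked fit, while the fit blocked by replicate number called *Ugt302C1* lower after pinching (adjusted p = 0.00657 from limma) and *Ugt50B3* higher after clean injury (adjusted p = 0.0210 from limma). Their log2 changes lay between -0.92 and 0.29 after pinching and between -0.57 and 0.45 after clean injury, with medians of -0.06 and -0.07. The most negative in both comparisons was *Ugt302C1*, formerly *Ugt86Da*, which read 8.52, 8.57 and 9.19 in untreated larvae, 7.92, 8.25 and 8.40 after clean injury and 7.06, 8.15 and 8.32 after pinching. Its injured arrays were all below the untreated ones, without passing in the unblocked fit (log2 change -0.92 after pinching, adjusted p = 0.10, and -0.57 after clean injury, adjusted p = 0.282, both from limma). *Ugt317A1* (*Ugt58Fa*) was at 6.11 ± 0.24 (SD, n = 3) in untreated larvae, 5.74 ± 0.18 after clean injury and 5.71 ± 0.28 after pinching, with log2 changes of -0.38 and -0.40. *Ugt316A1*, *Ugt301D1*, *Ugt304A1*, *Ugt303A1*, *Ugt49B1* and *Ugt305A1* had means over the arrays of 8.19, 7.23, 7.15, 7.10, 6.71 and 6.49, and each had a log2 change between -0.11 and 0.29 in both comparisons. *Ugt303B3* was at 4.94 ± 0.07 (SD, n = 3) in untreated larvae, 5.15 ± 0.22 after clean injury and 5.21 ± 0.20 after pinching. The rest were below the median probe set and were *Ugt49B2*, *Ugt49C1*, *Ugt50B3*, *Ugt302E1*, *Ugt302K1*, *Ugt303B1*, *Ugt303B2* and *Ugt307A1*, with means over the arrays from 2.77 to 4.30.

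**Figure D2:**
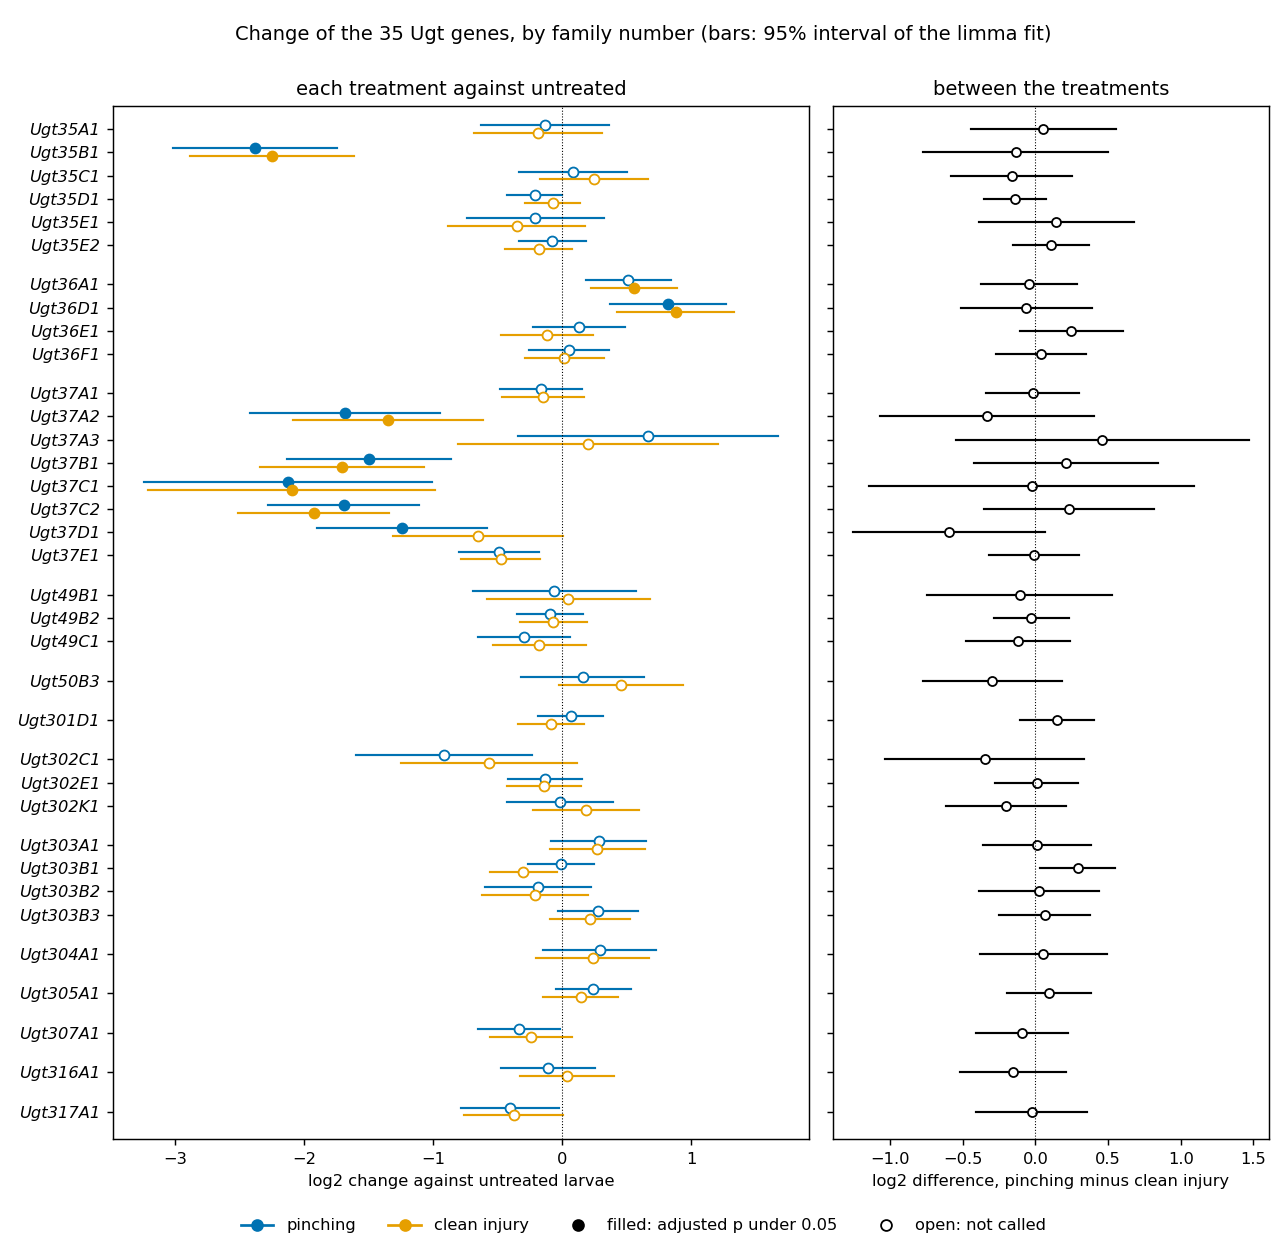
Log2 change of each of the 35 Ugt genes against untreated larvae (left, pinching blue and clean injury orange) and between the treatments (right), with 95% intervals of the limma fit and filled points for called genes. The filled points to the left of 0 belong to *Ugt35B1* and to genes of family 37, those to the right to *Ugt36A1* and *Ugt36D1*, and no point between the treatments is filled.

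All pinching arrays were below all untreated arrays for 11 of the 35 genes and above them for 3, against 14.9% and 12.7% of all probe sets. For clean injury the counts were 8 below and 3 above, against 19.1% and 15.4% of all probe sets. The 11 of 35 for pinching is above its background share, the 8 of 35 for clean injury is close to it, and the counts of genes above the untreated arrays are under theirs. In family 37, 7 of 8 genes were separated downward after pinching and 5 of 8 after clean injury. The 7 include the dim genes *Ugt37A1* and *Ugt37E1*, with log2 changes of -0.16 and -0.49 that did not pass in the unblocked fit. The 5 include *Ugt37E1*.

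The number of calls depended on single arrays, while *Ugt35B1*, *Ugt37B1* and *Ugt37C2* were lower in both comparisons in each of the 9 fits that left out 1 array. For pinching, leaving out untreated array 1 or untreated array 3 left these 3 genes lower and 0 higher. The share of all probe sets called lower was then 2.31% or 1.99%, and that called higher 2.48% or 2.23%. Without untreated array 2, *Ugt36D1* was not called and *Ugt37E1* was (7 lower, 0 higher), without pinching array 1 *Ugt37C1* and *Ugt37D1* were not called and *Ugt36A1* was (4 lower, 2 higher), and without pinching array 2 *Ugt36D1* and *Ugt37C1* were not called (5 lower, 0 higher). For clean injury, leaving out untreated array 1 or 3, or clean injury array 1 or 2, left 3 lower and 0 higher. In these fits 1.74% to 2.20% of all probe sets were lower and 2.35% to 2.79% higher. *Ugt36A1* also lost its call without untreated array 2, where *Ugt37E1* gained one (6 lower, 1 higher), and without clean injury array 3 or pinching array 2 (5 lower, 1 higher). Fitted to the 6 arrays compared alone, *Ugt36D1* and *Ugt37D1* did not pass after pinching, and by the methods' t-test, adjusted over all probe sets, 0 genes passed after pinching and 1, *Ugt35B1*, after clean injury.

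In the fit blocked by replicate number, 8 Ugt genes were lower and 2 higher after pinching, and 6 lower and 3 higher after clean injury. All genes called without the block were called with it. The added genes were *Ugt302C1* (log2 change -0.92, adjusted p = 0.00657), *Ugt37E1* (adjusted p = 0.0320) and *Ugt36A1* (adjusted p = 0.0162) after pinching, and *Ugt37E1* (adjusted p = 0.0320) and *Ugt50B3* (log2 change 0.45, adjusted p = 0.0210) after clean injury, from limma. The blocked fit called 8.76% of all probe sets lower and 7.6% higher after pinching, and 8.58% lower and 10.1% higher after clean injury. *Ugt50B3*, outside the naming rule, was singled out after its values were seen. Differences between arrays of the same number were below 0 in 3 of 3 numbers for each of the 6 lower genes in both comparisons. Apart from *Ugt37D1* after clean injury, the injured arrays all lay below the untreated ones for these genes. For the rest, any pairing of arrays would give this sign, so that it does not test the pairing by replicate number.

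Pinching and clean injury were then set against each other, to ask whether the kind of injury made a difference to these genes. None of the 35 genes was called higher or lower by limma, where the share of all probe sets was 0% higher and 0.00533% lower. At an unadjusted p under 0.05 from limma, 107 of 18769 probe sets were higher after pinching and 205 lower. Of the 35 genes, 1 was higher and 0 were lower. It was *Ugt303B1*, at 4.10 ± 0.14 (SD, n = 3) after clean injury, 4.39 ± 0.16 after pinching and 4.40 ± 0.04 in untreated larvae, with a difference of 0.29 (95% interval 0.03 to 0.55). It was named after its values were seen. The differences of the 35 genes lay between -0.60 for *Ugt37D1* and 0.46 for *Ugt37A3*, and their 95% intervals reached between 0.21 and 1.11 to either side. For *Ugt35B1* the difference was -0.13 (95% interval -0.77 to 0.50), for *Ugt37C2* 0.23 (-0.35 to 0.82) and for *Ugt37C1* -0.03 (-1.14 to 1.09). In the unblocked fit, intervals of this width leave room for a difference of about 2-fold in *Ugt37C1* and do not show that the treatments acted alike. For *Ugt37C1* after pinching against untreated larvae, the SE was 0.50 in that fit and 0.33 in the fit blocked by replicate number. Between the treatments the blocked fit called 0 of the 35 genes higher and 0 lower. It called 0% of all probe sets higher and 0.0426% lower, and its intervals are not given here.

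Many Ugt genes lie side by side in the genome. In the unblocked fit, the genes called in such runs had neighbours that were not called. In the RefSeq gene order of the Release 6 assembly, 23 of the 35 genes fell into 6 runs in which at most 3 other coding genes stood between Ugt genes. By chromosome arm, 17 genes lie on 3R, 11 on 2L, 5 on 2R and 2 on 3L. The longest run, on 3R, held 10 genes of families 35, 302, 303 and 304. In it *Ugt35B1* was the only gene called in the unblocked fit. With the replicate block *Ugt302C1* of this run was also lower after pinching (adjusted p = 0.00657 from limma). *Ugt35B1* stands between *Ugt35E2*, with a log2 change of -0.08 after pinching, and *Ugt35A1*, with -0.14. *Ugt37A2* and *Ugt37A3* are also adjacent on 3R, and had log2 changes of -1.68 and 0.66 after pinching. On 2L, *Ugt37C2*, *Ugt37E1* and *Ugt37D1* are adjacent, with -1.69, -0.49 and -1.25 after pinching. With the replicate block *Ugt37E1* was also called (adjusted p = 0.0320 from limma), so that each of these adjacent genes was lower after pinching. In another run on 2L, *Ugt36D1* was higher while *Ugt36F1* and *Ugt36E1*, to its sides, had log2 changes of 0.05 and 0.13. The lower genes *Ugt37B1* (2L) and *Ugt37C1* (2R) were in no run. The rule for members left out any probe set annotated to a further gene. Still, 3 of the 35, those of *Ugt50B3*, *Ugt36E1* and *Ugt37D1*, are of the type that can read several transcripts.

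**Figure D3:**
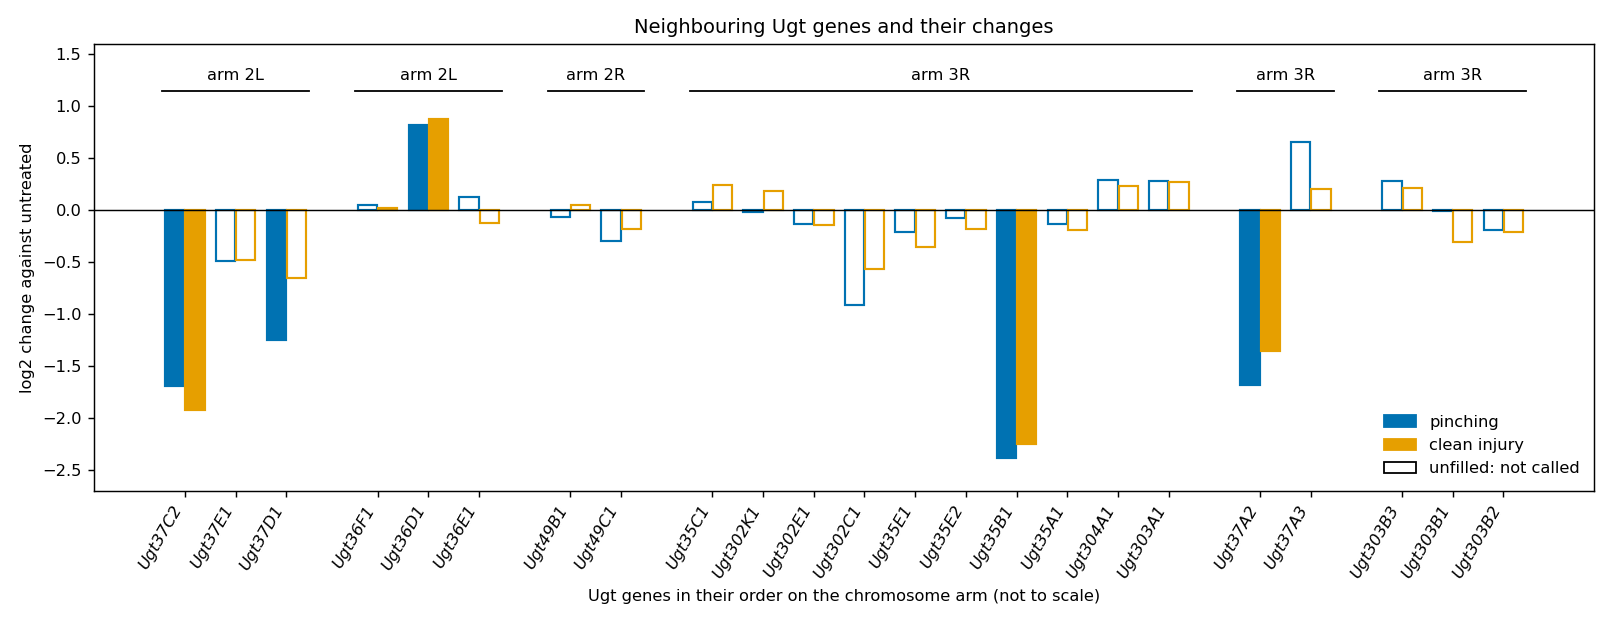
Log2 change against untreated larvae of the 23 Ugt genes that lie in 6 runs of neighbours. They stand in their order on the chromosome arm and not to scale. Pinching is in blue and clean injury in orange, with unfilled bars for genes that were not called in the unblocked fit. The tall filled bars of *Ugt35B1*, *Ugt36D1* and *Ugt37A2* stand beside unfilled bars of adjacent genes.

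Genes that act before and after the Ugt enzymes were read from fixed lists. Of 14 measured genes (19 listed) for the supply and transport of UDP-sugars, 6 were lower after pinching and 5 after clean injury, and none was higher. Beside this and all list counts that follow stand 4.99% of all probe sets lower and 4.21% higher after pinching, and 4.93% lower and 5.22% higher after clean injury. The median log2 change was -0.25 and -0.35. They were *Galk* (-0.68 after pinching, adjusted p = 0.00584 from limma) and *Galt* (-0.48), which bring galactose into the UDP-sugar pool, *Pgi* (-0.66), which interconverts the hexose phosphates, and *Ugalt* (-0.70), a transporter of UDP-galactose. *Gnpnat* (-0.36), an enzyme on the way to UDP-N-acetylglucosamine, was also lower, and *Gfat1* (-0.43), which opens that way, passed after pinching but not after clean injury (-0.36, adjusted p = 0.0678 from limma). Apart from *Pgi*, these genes serve galactose, amino sugars or transport. The enzyme that makes UDP-glucose, *UGP*, was read by a dim probe set at 2.83 ± 0.10 (SD, n = 3) in untreated larvae and had a log2 change of -0.07 after pinching (adjusted p = 0.824 from limma).

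Of 6 genes for ABC transporters that can export conjugates, 3 were lower after pinching and 2 after clean injury, with medians of -0.49 and -0.29. *Mdr50* had log2 changes of -1.03 and -0.95, *Mrp5* of -0.91 and -0.75, and *Mrp4*, a dim gene, of -0.41 and -0.22, the last of which did not pass. *MRP* itself had -0.56 after pinching and did not pass (adjusted p = 0.154 from limma). Among 8 regulators of detoxification genes, 1 was higher after pinching and 2 after clean injury, with medians of 0.35 and 0.45. *maf-S* was 1.54-fold higher after pinching (log2 change 0.62, adjusted p = 0.0101 from limma) and 1.56-fold higher after clean injury. Its protein pairs with CncC, the fly counterpart of Nrf2, and *cnc* had log2 changes of 0.50 after pinching (adjusted p = 0.0532 from limma) and 0.64 after clean injury (adjusted p = 0.0181 from limma). *Keap1*, which holds CncC back, had -0.15 and 0.02, and *Hr96*, a nuclear receptor for foreign compounds, had 0.40 and 0.63 with adjusted p of 0.420 and 0.190 from limma. In 7 measured genes (10 listed) for other conjugating and hydrolysing enzymes, 2 were lower after pinching, *Jheh2* (-0.43), an epoxide hydrolase, and *Uggt* (-0.62). *Uggt* shares the use of UDP-glucose but acts on misfolded glycoproteins. *St1* (-0.51), a sulfotransferase, was the gene of that list lower after clean injury, and the medians were -0.25 and -0.14.

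Markers of larval tissues were read on the same arrays, since whole larvae hold all of them, and their part in the Ugt results was not tested. Of 7 measured Malpighian tubule markers (8 listed), 3 were lower in both comparisons, *Oatp58Da*, *salt* and *Picot*, and 1 was higher, *ZnT35C*. *Picot* had log2 changes of -1.10 after pinching and -0.86 after clean injury, *salt* of -1.11 and -1.20, and *ZnT35C* of 0.82 and 0.83. The mean of this list was 6.76 to 6.77 on the untreated arrays, 6.19 to 6.58 after clean injury and 6.28 to 6.54 after pinching, so that the untreated arrays stood apart from the injured ones while the injured groups overlapped. Of 3 measured epidermis markers (8 listed), *obst-A* and *serp* were lower in both comparisons, and the list mean was 10.5 to 11.0, 9.83 to 10.01 and 9.44 to 9.88 in the same order. Of 6 measured fat body markers (9 listed) *Apoltp* was lower in both (-1.36 after pinching), while the larval serum protein gene *Lsp2* was at 13.9 in every group. The fat body list mean was 10.69 to 10.82, 10.59 to 10.82 and 10.47 to 10.64. Of 10 measured midgut markers (11 listed), *LManV* (-1.62 after pinching) and *thetaTry* (-0.99) were lower in both and *alphaTry* (1.13) was higher after clean injury. The midgut list mean was 10.45 to 10.52, 10.31 to 10.36 and 10.29 to 10.45.

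Of 10 salivary gland markers 0 were called after pinching and 1 was lower after clean injury, *ng2* (-1.11), with overlapping list means (11.49 to 11.94, 11.55 to 12.0 and 11.40 to 11.98). Of 9 hemocyte markers 0 were called after pinching, and after clean injury *He* (0.99) was higher and *Pxn* (-0.64) and *PPO1* (-0.68) were lower, with list means of 8.82 to 8.94, 8.74 to 8.80 and 8.70 to 8.93. None of 5 measured muscle markers (8 listed) was called (10.47 to 11.09, 10.19 to 10.76 and 10.29 to 10.93). Of 6 measured markers of the antenna and other olfactory organs (7 listed), *Obp19a* (-0.44) was lower after pinching and *Obp56d* (0.99) was higher after clean injury, and the list mean was 5.53 to 5.59 in untreated larvae, 5.58 to 5.77 after clean injury and 5.67 to 5.81 after pinching. *lush* and *Orco*, markers of olfactory sensilla, were dim at 2.51 and 3.01 in untreated larvae.

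**Figure D4:**
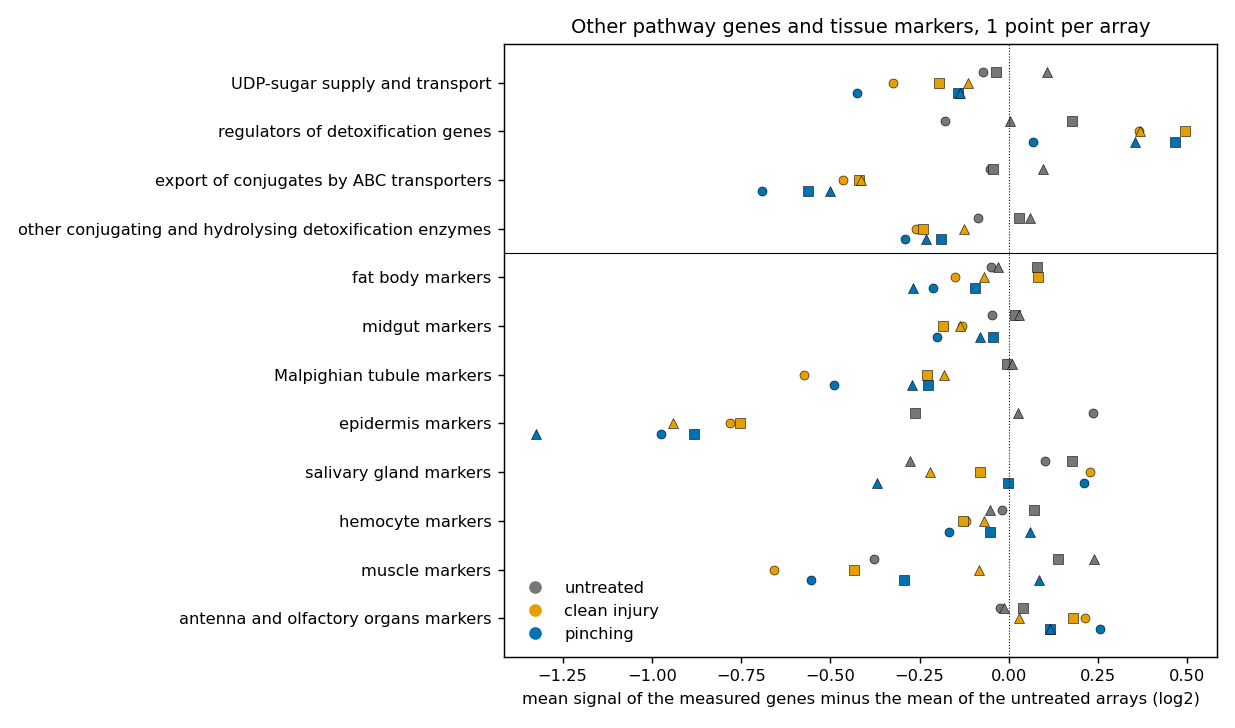
Mean log2 signal of the measured genes of each pathway list (upper 4) and tissue marker list (lower 8), 1 point per array, minus the mean of the untreated arrays, with marker shapes for replicates as in the plot of single genes. Points of injured larvae lie left of all untreated points for the UDP-sugar, exporter, other enzyme, Malpighian tubule and epidermis lists, and right of them for the regulators on all but 1 pinching array.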

How the data were processed

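Total RNA of whole larvae was hybridized to 9 Affymetrix Drosophila Genome 2.0 arrays, 3 per group. The log2 signals of all probe sets were used as the authors deposited them. The analysis is credited to R in the paper. The correction, normalization and summarization of the signals were not given in the sources used here. Of 18952 probe sets, 183 controls were left out and 18769 were tested in limma 3.58.1 (R 4.3.3) with 1 mean for each group fitted to the 9 arrays together, two-sided, and p-values adjusted by Benjamini-Hochberg. The prior had 4.25 degrees of freedom, and the fit was first tested on simulated data. The small number of arrays, 3 in a group, limits the precision. Python 3.11.15 with pandas 2.3.3 and matplotlib 3.10.9 served for tables and plots.

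Genes were named from the platform annotation (13647 probe sets with 1 symbol, 402 with several, 4720 unnamed here), and 0 symbols changed when looked up in the RefSeq gene table (Release 6 plus ISO1 MT). A gene with several probe sets was read from the brightest. The members and lists were chosen with earlier results of these data known, and the lists hold 4 pathway groups and 8 sets of tissue markers. By rule, every Ugt gene called in any comparison and the 3 uncalled genes with the largest change after pinching were given with all array values, and called list genes were named. No sequence is shown.

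The groups share replicate numbers. Deviations from the group means correlated in all 9 pairs of arrays with the same number (r from 0.189 to 0.548) and over 0.1 in 1 of 18 pairs with different numbers (-0.463 to 0.16). The numbers were therefore taken to pair the samples, an inference from the values since the labels state no pairing, and the replicate block is given beside the unblocked fit. Alternatives were quantile normalization, median centring, leaving out the dimmest 40% of probe sets or those that can read several transcripts, the 6 arrays compared alone, the methods' t-test, a robust prior with an intensity trend, the block, a 2-fold minimum, averaged probe sets of a gene, and each array left out.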

Additional observations from a re-analysis of the deposited data

How the results depend on the processing

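With the replicate block the Ugt genes higher after pinching were 2 in place of 1, and no call was lost. Other settings that moved this count gave 2 without the dimmest 40% of probe sets, and 0 with only the 6 arrays compared, with a 2-fold minimum or by the methods' t-test. Without the dimmest probe sets 24 Ugt genes were tested, and 7.74% of the probe sets left were higher. With only the 6 arrays compared 3.08% of all probe sets were higher. With a 2-fold minimum 217 of 18769 were. Those higher after clean injury, 2 in the fit used, were 1 with quantile normalization or median centring and 0 with a 2-fold minimum or by the methods' t-test. The gene lost with either normalization was *Ugt36A1*. Of all probe sets, 5.13% were higher with quantile normalization and 4.88% with median centring, and with a 2-fold minimum 276 of 18769 were. By that test, adjusted over all probe sets, 0 genes were lower after pinching and 1, *Ugt35B1*, after clean injury. It called 0.0746% of all probe sets lower and 0.133% higher after pinching, and 0.192% and 0.453% after clean injury. Unadjusted, it called 10 Ugt genes lower and 2 higher after pinching, and 7 lower and 2 higher after clean injury. Of all 18769 probe sets, it called 1715 lower and 1633 higher after pinching without adjustment. After clean injury these counts were 2299 lower and 1969 higher. Leaving out 1 array at a time gave 3 to 7 lower and 0 to 2 higher genes after pinching, and 3 to 6 lower and 0 to 2 higher after clean injury. The shares of all probe sets were 1.99% to 5.37% lower and 2.23% to 5.19% higher after pinching. After clean injury they were 1.74% to 6.53% lower and 2.35% to 6.75% higher. Without the probe sets that can read several transcripts *Ugt37D1* had no value. Some settings leave fewer arrays or probe sets, and the cause of these shifts was not tested.

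Differences between the treatments were small enough to change sign. With quantile normalization they were 0.0099 for *Ugt36A1* and 0.00058 for *Ugt36D1*. With 1 array left out they ranged from -0.48 to 0.21 for *Ugt35B1*, from -0.18 to 0.096 for *Ugt36A1*, from -0.31 to 0.089 for *Ugt36D1*, from -0.64 to 0.038 for *Ugt37A2*, from -0.48 to 0.36 for *Ugt37C1*, from -0.59 to 0.043 for *Ugt302C1* and from -0.15 to 0.83 for *Ugt37A3*. The change of *Ugt37A3* after clean injury ranged from -0.12 to 0.48. No other value of the named genes changed sign. Of the values of the 10 genes shown on every array, over 3 comparisons and all alternatives, 469 kept their direction and side of the threshold, 49 lost a call, 4 gained one and 15 changed sign. Among genes outside these 10, *Ugt37E1* gained a call under some alternatives, median centring among them, and *Ugt50B3* under the block.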
